A study of Sus scrofa with 13 samples.

Results

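GADL1, ASPA and PTER encode enzymes that make or break down derivatives of amino acids, and their levels were followed in pig skeletal muscle with and without intact dystrophin. The 3 genes were chosen from earlier results on these arrays, by their differences between genotypes and ages, out of 10283 genes that carried a name. Each is measured by 1 probe set that carries its symbol alone. Their own values are therefore given as a description, with no test, and only other genes are tested. The lists of those other genes were also drawn up with the earlier results known.

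RNA came from the biceps femoris muscle of 13 German Landrace pigs, and each animal was measured on its own whole-transcript array. At 3 months of age there were 3 DMD KO and 3 WT pigs. At 2 days there were 4 DMD KO and 3 WT pigs. DMD KO animals came from nuclear transfer with kidney cells whose DMD gene, which encodes dystrophin, had lost exon 52 through a modified bacterial artificial chromosome. They were sampled when they died, whereas WT animals of matching age were euthanised, so that genotype, cloning and manner of death cannot be told apart in any genotype difference below. In DMD KO the 2 ages are also the ages at death. Age and survival to that age therefore cannot be told apart in any DMD KO change with age below. Whether the cloned animals go back to 1 cell clone is not stated in the labels.

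GADL1 is a decarboxylase that in mice makes beta-alanine from aspartate, and beta-alanine is joined to histidine to give carnosine, a buffer of acid that is abundant in skeletal muscle, above all in fast fibres. ASPA (aspartoacylase) splits N-acetylaspartate into acetate and aspartate, and its loss in humans causes Canavan disease, a disorder of the white matter of the brain. PTER (phosphotriesterase related) hydrolyses N-acetyltaurine in mice, where it releases taurine, another abundant small molecule of muscle. The enzymes thus handle related compounds, but they are not steps of 1 pathway.

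The values were deposited as levels that are read as log2, since they run from 2.81 to 13.8, so a difference of 1 stands for a doubling. The array medians lay between 7.32 and 7.38 and the 25th percentiles between 6.53 and 6.61. No fold is given where the lower group's mean was not above those percentiles. The array least like the rest was that of WT replicate 3 at 2 days, whose mean correlation with the others was 0.918 across probe sets, against 0.943 to 0.964 elsewhere. Of 6 defining skeletal muscle genes, ACTA1 and NEB were measured under their own symbol, and their mean level was 12.2 to 12.7 on every array. The brighter DMD probe set (15336155) did not pass the test between genotypes, at -0.22 ± 0.18 at 3 months and 0.11 ± 0.17 at 2 days (SE, limma adjusted p = 0.528 and 0.705), and where it lies relative to that exon was not analysed here.

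GADL1 (probe set 15219142) was lower in DMD KO than in WT muscle at both ages and higher at 3 months than at 2 days in both genotypes. At 3 months its log2 level was 8.12, 8.13 and 7.45 in DMD KO replicates 1 to 3, against 9.91, 9.25 and 10.40 in WT replicates 1 to 3. At 2 days it was 5.82, 6.61, 5.51 and 6.05 in DMD KO replicates 1 to 4, against 8.38, 8.68 and 7.98 in WT replicates 1 to 3. At neither age did the values of the genotypes overlap.

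The GADL1 difference between DMD KO and WT was -1.95 ± 0.32 at 3 months (SE), a level 3.87-fold lower, and -2.35 ± 0.30 at 2 days. Among the differences of all 21893 probe sets it ranked 4 from the lowest at each age. In newborn DMD KO muscle the group mean lay below the 25th percentiles of the arrays, so the probe set was dim there. In a whole-tissue extract, fewer cells that express a gene and less RNA per cell cannot be told apart.

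With age, GADL1 was higher by 1.90 ± 0.30 in DMD KO and by 1.51 ± 0.32 in WT (SE), again with no overlap between ages. Subtracting the genotype difference of newborns from that of grown animals left 0.39 ± 0.44 (SE), less than its own error. That value was 0.09 without WT replicate 2 at 3 months and 0.67 without WT replicate 3 at 3 months. The groups ran in the order WT at 3 months (9.85), WT at 2 days (8.35), DMD KO at 3 months (7.90) and, lowest, DMD KO at 2 days. The middle neighbours overlapped, with DMD KO muscle at 3 months and WT muscle at 2 days 0.45 ± 0.32 apart (SE).

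**Figure D1:**
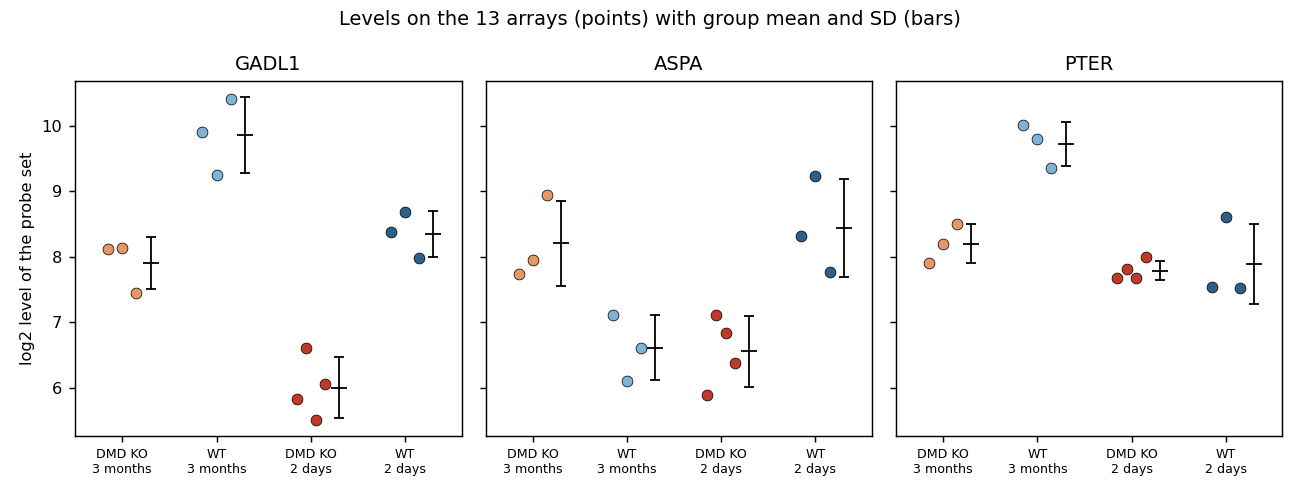
Log2 level (y axis) of the probe sets of GADL1, ASPA and PTER in the 4 groups (x axis), where each point is 1 animal and the bar beside a group is its mean and SD. GADL1 is lower in DMD KO at both ages, ASPA is higher in DMD KO at 3 months and lower at 2 days, and PTER stands apart only in WT at 3 months.

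ASPA (probe set 15209321) lay on opposite sides of WT at the 2 ages. At 3 months its log2 level was 7.73, 7.94 and 8.95 in DMD KO replicates 1 to 3, against 7.10, 6.11 and 6.61 in WT replicates 1 to 3. At 2 days it was 5.89, 7.11, 6.84 and 6.37 in DMD KO replicates 1 to 4, against 8.31, 9.23 and 7.76 in WT replicates 1 to 3. All 3 DMD KO animals lay above the WT range at 3 months, and all 4 lay below it at 2 days.

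The ASPA difference was 1.60 ± 0.43 at 3 months and -1.88 ± 0.40 at 2 days (SE). The first minus the second was 3.48 ± 0.58 (SE), which ranked 11 by size among the 21893 probe sets. In DMD KO the level at 3 months exceeded that at 2 days by 1.66 ± 0.40, whereas in WT it was lower at 3 months, at -1.83 ± 0.43 (SE). The ages did not overlap in either genotype.

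By level the ASPA groups fell into a high and a low pair. WT at 2 days (8.43 ± 0.74, SD, n = 3) and DMD KO at 3 months (8.21 ± 0.65, SD, n = 3) overlapped. WT at 3 months (6.61 ± 0.50, SD, n = 3) and DMD KO at 2 days (6.55 ± 0.54, SD, n = 4) overlapped too, and both means lay among the 25th percentiles of the arrays. Between the pairs, DMD KO and WT at 3 months did not overlap. ASPA had the widest spread within groups of the 3 genes at 2 days, and at 3 months in DMD KO.

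PTER (probe set 15202719) differed between genotypes at 3 months, while at 2 days the genotypes overlapped. At 3 months its log2 level was 7.91, 8.19 and 8.49 in DMD KO replicates 1 to 3, against 10.01, 9.80 and 9.35 in WT replicates 1 to 3. At 2 days it was 7.68, 7.82, 7.67 and 7.99 in DMD KO replicates 1 to 4, against 7.54, 8.60 and 7.53 in WT replicates 1 to 3. One WT animal, replicate 2, lay above all 4 DMD KO animals at 2 days, and the other two lay below them.

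The PTER difference at 3 months was -1.52 ± 0.27 (SE), a level 2.87-fold lower in DMD KO, and ranked 18 from the lowest among all probe sets. At 2 days it was -0.10 ± 0.25 (SE), and it changed sign to 0.26 without WT replicate 2. In DMD KO the ages overlapped and differed by 0.41 ± 0.25, whereas in WT PTER was 3.56-fold higher at 3 months than at 2 days (1.83 ± 0.27, SE). The genotype difference of grown animals minus that of newborns was -1.42 ± 0.36 (SE). The highest group, WT at 3 months (9.72 ± 0.34, SD, n = 3), stood clear of the rest, and neighbours among the other groups, DMD KO at 3 months (8.20), WT at 2 days (7.89) and DMD KO at 2 days (7.79), overlapped.

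**Figure D2:**
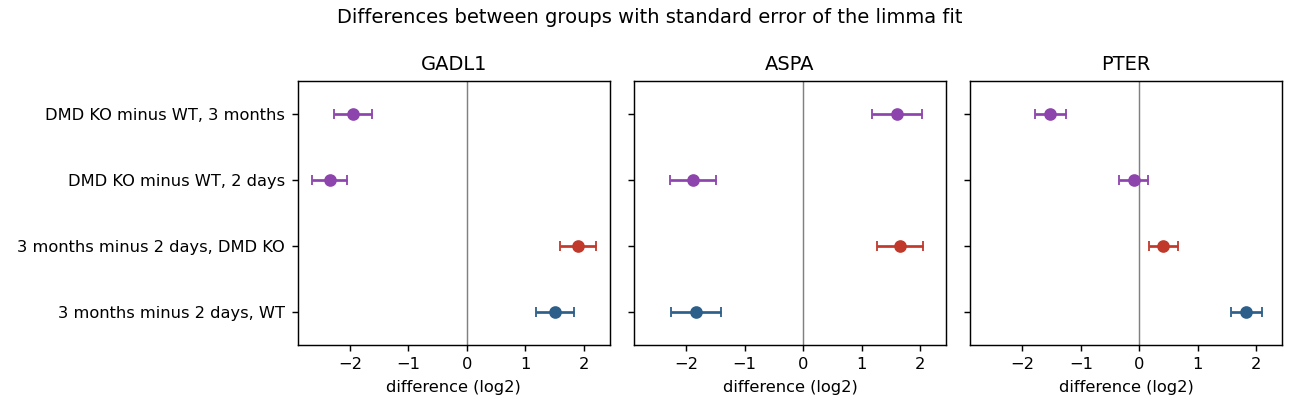
Differences in log2 level (x axis) of GADL1, ASPA and PTER in 4 comparisons (y axis), as points with the standard error of the limma fit. The points of GADL1 lie at -1.95 and -2.35 between genotypes at 3 months and 2 days, those of ASPA at 1.60 and -1.88, and those of PTER at -1.52 and -0.10.

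The 3 genes also varied among animals of the same group. WT replicate 2 at 2 days had the highest level of its group in all 3, at 0.33, 0.80 and 0.71 above the group mean for GADL1, ASPA and PTER. DMD KO replicate 3 at 3 months was the highest of its group in ASPA and PTER, by 0.74 and 0.29 over the mean, and the lowest in GADL1, at -0.45. Over the 13 arrays the deviations from the group means had a Pearson r of 0.66 between ASPA and PTER, 0.26 between GADL1 and ASPA, and 0.02 between GADL1 and PTER. These are descriptions of animals that share arrays and normalization. With the group means left in, r was -0.17, 0.20 and 0.74 for the same pairs, so the pair most alike within groups was the least alike across them.

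For each of the 3 genes the named genes with the most similar profile over the 13 arrays were listed by Pearson r, which here includes the differences between groups. GADL1 was closest to AK1 (0.972), the adenylate kinase of muscle cytosol, NREP (0.963) and MSTN (0.953), or myostatin, a secreted brake on muscle growth. Within groups r was 0.64, 0.91 and 0.48 for the same genes. NREP averaged 9.78 and 10.57 in DMD KO and WT at 3 months and 7.82 and 10.06 at 2 days. MSTN was dim in newborn DMD KO muscle, with a mean of 6.42. PTER itself ranked 158 of 10282 genes for likeness to GADL1.

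ASPA was closest to RCN1 (0.952), a calcium-binding protein of the endoplasmic reticulum, ARHGAP11A (0.939), a protein of dividing cells, and POLE2 (0.932), a subunit of DNA polymerase epsilon. Within groups r was 0.81, 0.83 and 0.89. RCN1 averaged 8.40 and 7.79 in DMD KO and WT at 3 months and 7.69 and 8.41 at 2 days, the same crossing of the genotypes on a smaller scale. POLE2 was dim in every group, with means from 4.88 to 5.56. ARHGAP11A was dim in newborn DMD KO (6.36) and grown WT muscle (6.50).

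PTER was closest to FBXO40 (0.964), a muscle F-box protein of a ubiquitin ligase, GLO1 (0.933), the glyoxalase that removes methylglyoxal, and PSTPIP2 (0.922), an actin-binding adaptor protein. FBXO40 averaged 7.64 and 9.32 in DMD KO and WT at 3 months and 7.04 and 7.27 at 2 days. Within groups r was 0.74, 0.53 and 0.73. These 9 genes share with the 3 enzymes the difference between groups that selected them.

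Markers of fibre types and of other cells moved along some of the same comparisons. Of 11 fast-fibre genes 7 were measured, and their mean level ran from 10.1 to 10.5 in DMD KO and 11.4 to 11.8 in WT at 3 months, and from 9.48 to 9.77 in DMD KO and 9.87 to 10.4 in WT at 2 days. Of these, 4 fell at 3 months and 3 at 2 days, against 1.36% and 2.85% of all probe sets that fell at those ages (limma adjusted p under 0.05). GADL1 had the same direction at both ages and PTER at 3 months. Of 5 measured slow-fibre genes 2 rose at 2 days, against 7.09% of all probe sets, and the median difference was 1.01 at 2 days and -0.01 at 3 months.

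Of 6 fibroblast genes 5 were measured, COL1A1, COL1A2, COL3A1, DCN and LUM. Their mean level was 11.2 to 11.3 in DMD KO and 10.3 to 10.7 in WT at 3 months, and 9.76 to 9.99 in DMD KO and 11.2 to 11.3 in WT at 2 days. At 3 months 4 of them rose, against 4.62% of all probe sets, and at 2 days all 5 fell, against 2.85%. ASPA showed the same crossing. Macrophage genes (6 of 8 measured) averaged 8.09 to 8.54 in DMD KO and 7.17 to 7.50 in WT at 3 months, where 4 of them rose, and 7.29 to 7.43 in DMD KO and 7.16 to 7.44 in WT at 2 days. Of 5 measured adipocyte genes the means were 7.55 to 7.59 in DMD KO and 7.64 to 7.82 in WT at 3 months. The part of these cells and fibres in the levels of GADL1, ASPA and PTER was not tested.

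Genes that work around the 3 enzymes were drawn up in 5 lists of 60 genes in all, and 32 of them were measured. Earlier results of these data were known by then, so the counts below are not independent of these arrays. CSAD and ACY3, the closest relatives of GADL1 and ASPA, were not among those measured under their own symbol, nor was CARNS1, the carnosine synthase. Each of the 32 was tested in the limma fit with p adjusted over all 21893 probe sets. In DMD KO against WT at 3 months 2 of 32 rose and 1 fell, or 6.25% and 3.12%, against 4.62% and 1.36% of all probe sets. At 2 days 4 rose and 1 fell, or 12.5% and 3.12%, against 7.09% and 2.85%. The median difference over the 32 was -0.10 at 3 months and 0.05 at 2 days, beside -0.05 and -0.02 over all probe sets.

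**Figure D3:**
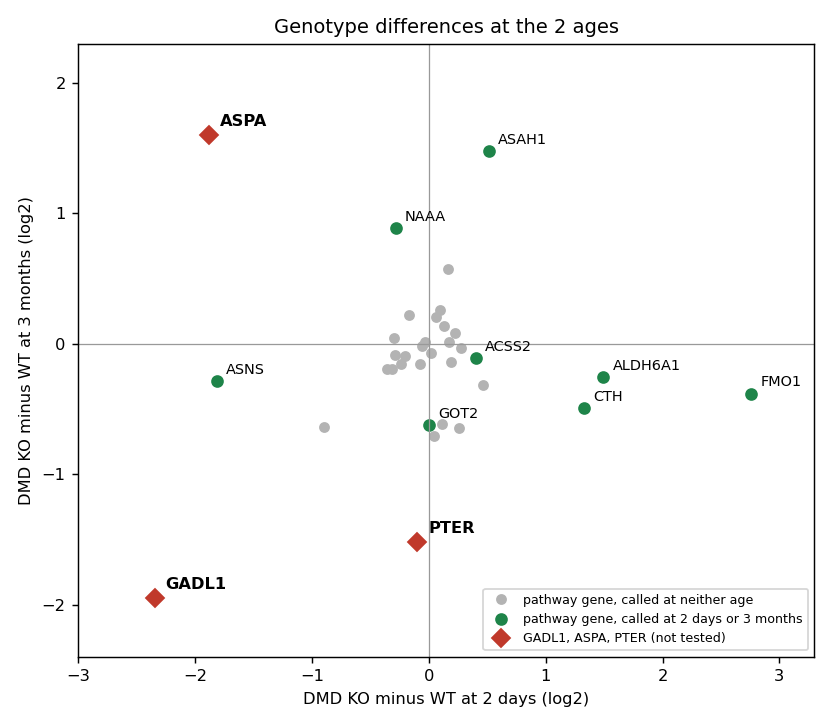
Differences in log2 level between DMD KO and WT at 2 days (x axis) and at 3 months (y axis) for the 32 measured pathway genes (circles, green and named where called at either age) and for GADL1, ASPA and PTER (red diamonds, not tested). Most pathway genes lie near 0, FMO1, ALDH6A1 and CTH lie to the right, and ASPA lies far to the upper left, at -1.88 and 1.60.

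The list of taurine and cysteine sulfinate had 4 measured genes, of which 2 rose at 2 days, against 7.09% of all probe sets. CDO1 lay the other way at 2 days, at -0.89 ± 0.28 with no overlap, but did not pass (SE, limma adjusted p = 0.0619). GOT1 differed by 0.05 (adjusted p = 0.907). FMO1, a flavin-containing monooxygenase that oxidises hypotaurine to taurine, had log2 levels of 10.60, 10.87, 10.31 and 10.80 in DMD KO replicates 1 to 4, against 8.56, 8.26 and 6.84 in WT replicates 1 to 3 at 2 days. It was 6.78-fold higher in DMD KO (2.76 ± 0.43, SE, limma adjusted p = 0.00237). CTH, which makes cysteine from cystathionine, had 7.14, 7.08, 6.93 and 7.45 in DMD KO, against 5.42, 6.06 and 5.99 in WT, and rose by 1.33 ± 0.15 (SE, adjusted p = 0.000478). Neither gene passed at 3 months, where the differences were -0.38 for FMO1 and -0.49 for CTH (adjusted p = 0.662 and 0.108). CTH was dim in newborn WT muscle (5.82) and at 3 months in DMD KO and WT (5.59 and 6.08). Its values at 3 months therefore cannot show whether its level differed.

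In the list of beta-alanine and carnosine 1 of 9 measured genes rose at 2 days, or 11.1%, against 7.09% of all probe sets. The gene was ALDH6A1, which oxidises malonate semialdehyde, the product of beta-alanine transamination, and serves valine breakdown too. Its log2 levels were 8.90, 8.50, 8.55 and 8.99 in DMD KO, against 7.05, 7.71 and 6.97 in WT, a level 2.82-fold higher in DMD KO (1.49 ± 0.20, SE, adjusted p = 0.00116). At 3 months it differed by -0.26 (adjusted p = 0.537).

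Among 12 measured genes of N-acetylaspartate and aspartate metabolism, ASNS fell and ACSS2 rose at 2 days, and GOT2 fell at 3 months. Each makes 8.33% of the list, against 2.85%, 7.09% and 1.36% of all probe sets. ASNS, which turns aspartate into asparagine, had 6.34, 6.23, 6.33 and 6.20 in DMD KO, against 8.53, 7.87 and 7.87 in WT newborns, and differed by -1.81 ± 0.27 (SE, adjusted p = 0.00192). The ASNS mean in newborn DMD KO lay below the 25th percentiles of the arrays, so it was dim there. ACSS2, which activates acetate, the other product of ASPA, was higher by 0.40 ± 0.11 (SE, adjusted p = 0.0446). That call was kept without DMD KO replicate 3 or WT replicate 2 at 2 days or WT replicate 1 or 3 at 3 months, and was lost without any 1 of the other 9 arrays (adjusted p from 0.0532 to 0.183). It was also lost with quantile normalization, with trend and robust settings of eBayes and with the groups of the comparison alone (adjusted p = 0.0543, 0.0504 and 0.0975). GOT2, the mitochondrial aspartate aminotransferase, had 10.42, 10.77 and 10.51 in DMD KO, against 11.15, 11.21 and 11.21 in WT at 3 months, and differed by -0.62 ± 0.14 (SE, adjusted p = 0.0225). It did not pass without DMD KO replicate 1 or 3 or WT replicate 2 or 3 at 3 months (adjusted p from 0.0755 to 0.0907).

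Of 4 measured enzymes among the other amidohydrolases, ASAH1 and NAAA rose at 3 months, or 50%, against 4.62% of all probe sets. At that age PTER, also a hydrolase of an N-acyl compound, was lower in DMD KO. ASAH1, the acid ceramidase of the lysosome, had 8.65, 8.72 and 9.23 in DMD KO, against 7.80, 6.97 and 7.40 in WT, and was 2.78-fold higher (1.48 ± 0.25, SE, adjusted p = 0.00345). NAAA, a lysosomal amidase of N-acylethanolamines, had 7.15, 7.97 and 7.84 in DMD KO, against 6.97, 6.67 and 6.66 in WT, a level 1.85-fold higher (0.89 ± 0.20, SE, adjusted p = 0.0185). The NAAA call did not hold without DMD KO replicate 2 or 3 or WT replicate 2 or 3 at 3 months (adjusted p from 0.0742 to 0.0912), nor with the groups of the comparison alone (adjusted p = 0.0721). The macrophage genes given above were higher in the same animals, and their part in this was not tested.

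The list of other amino acid decarboxylases had 3 measured genes, GAD2 and HDC, which use pyridoxal phosphate as GADL1 does, and AMD1, which uses a pyruvoyl group instead. By limma 0 of them passed in any comparison, and 0 had an unadjusted p under 0.05. GAD2, a glutamate decarboxylase of neurons, differed by -0.15 at 3 months (95% interval from -0.44 to 0.13) and by -0.24 at 2 days (-0.51 to 0.03). GAD2 was dim in every group, with means from 6.34 to 6.58, so these values cannot show whether its level changed. AMD1, which makes the aminopropyl donor of the polyamines, differed by 0.21 (-0.39 to 0.81) and 0.06 (-0.50 to 0.62). GADL1, chosen by its differences on these arrays, differed by -1.95 and -2.35 at the same ages, and was not compared with these genes.

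**Figure D4:**
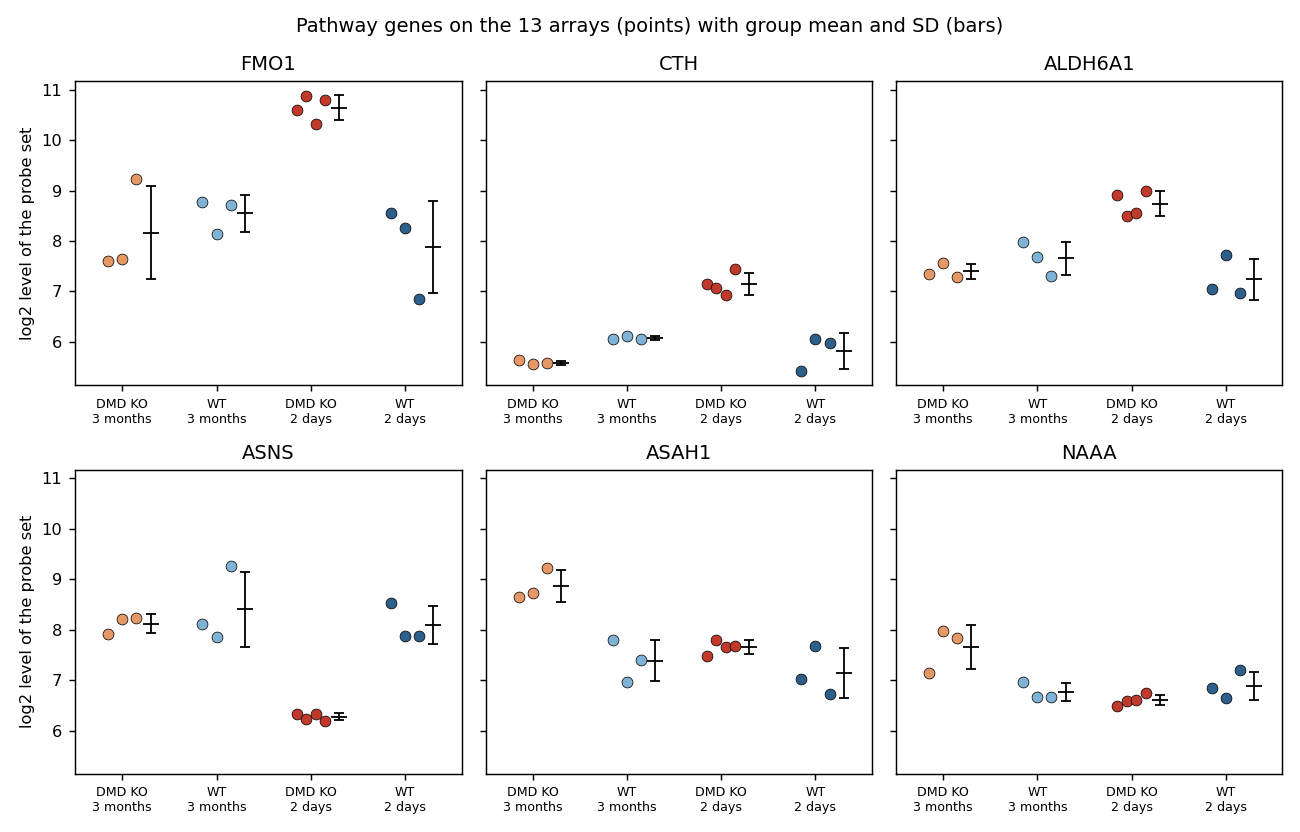
Log2 level (y axis) of 6 pathway genes in the 4 groups (x axis), where each point is 1 animal and the bar beside a group is its mean and SD; levels are to be compared within a gene. FMO1, CTH and ALDH6A1 stand high and ASNS low in DMD KO at 2 days alone, and ASAH1 and NAAA are higher in DMD KO than in WT at 3 months.

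The pathway genes were also compared between ages within each genotype. In DMD KO, 3 of 32 rose and 7 fell at 3 months against 2 days, or 9.38% and 21.9%, beside 4.47% and 3.57% of all probe sets. The falls were FMO1 (-2.48), CTH (-1.56), GOT1 (-1.43), the cytosolic aspartate aminotransferase, ALDH6A1 (-1.34), GOT2 (-0.94), HIBADH (-0.63), an enzyme of valine breakdown, and ACSS2 (-0.48), with adjusted p from 5.36e-05 for CTH to 0.0488 for HIBADH. The rises were ASNS (1.85), ASAH1 (1.21) and NAAA (1.05). In newborn DMD KO muscle ASNS and NAAA were dim, with means of 6.27 and 6.61, and CTH was dim in DMD KO at 3 months (5.59). In the same comparison 5 of 5 measured fibroblast markers, 4 of 6 macrophage markers and 3 of 7 fast-fibre markers rose and 2 of 4 endothelial markers fell, and their part in these changes was not tested. The HIBADH call was kept without WT replicate 2 or 3 at either age and lost without any 1 of the other 9 arrays and with trend and robust settings of eBayes (adjusted p = 0.0599), and that of ACSS2 was lost without DMD KO replicate 2 or 4 at 2 days or any 1 DMD KO replicate at 3 months. In WT, 0 of 32 rose and 0 fell by limma, with 3 at an unadjusted p under 0.05, beside 1.71% and 1.18% of all probe sets, and 1 rose and 3 fell with array weights. Markers changed with age in WT too, where 5 of 7 fast-fibre and 1 of 5 slow-fibre markers rose and 2 of 5 fibroblast markers fell. Their part was not tested either. Of the 10 genes called in DMD KO, GOT1, GOT2, HIBADH, ACSS2 and ASAH1 did not pass the test of the difference between genotypes in the change with age (adjusted p from 0.103 to 0.239), and the other 5 did.

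That test, which is also the genotype difference of grown animals minus that of newborns, called 2 of 32 genes higher and 3 lower, or 6.25% and 9.38%, beside 3.06% and 1.99% of all probe sets. The lower ones were FMO1 (-3.14 ± 0.63, SE, adjusted p = 0.0119), CTH (-1.82 ± 0.22, SE, adjusted p = 0.000542) and ALDH6A1 (-1.75 ± 0.30, SE, adjusted p = 0.00497). The higher ones were ASNS (1.53 ± 0.40, SE, adjusted p = 0.0449) and NAAA (1.17 ± 0.27, SE, adjusted p = 0.0256). Of these 5 genes, ASNS and NAAA were dim in newborn DMD KO muscle, and CTH was dim in every other group. The call of ASNS was kept without WT replicate 3 at either age and lost without any 1 of the other 11 arrays (adjusted p from 0.0515 to 0.102), and with quantile normalization or median centring (adjusted p = 0.0599 and 0.0555). That of NAAA was lost without DMD KO replicate 1 or 2 at 2 days, or DMD KO or WT replicate 2 or 3 at 3 months (adjusted p up to 0.0671). The same difference for ASPA was 3.48 ± 0.58 (SE). It is neither tested here nor compared with these genes, because ASPA was chosen by its differences on these arrays.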

How the data were processed

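Total RNA of 13 biceps femoris samples, extracted with Trizol, was biotin-labelled and put on 1 array each, per the labels' protocols. The authors deposited 1 table of 21893 probe sets in log2 values. The submitters' processing notes name Affymetrix Power Tools, without a version, normalization or summary method, and the log2 scale is inferred from the values. Values were used as deposited. Symbols came from the platform annotation, with 11028 probe sets carrying 1 symbol, 418 several and 10447 none. Of these symbols 5 were updated by gene number through RefSeq's table for Sscrofa11.1. A gene was represented by its probe set with the highest mean.

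All 4 groups were fitted together with limma 3.58.1 in R 4.3.3 (lmFit, eBayes, 9 residual degrees of freedom), two-sided, with Benjamini-Hochberg adjustment over all probe sets and calls at an adjusted p under 0.05. The fit was tested on simulated data. SE is limma's moderated error. Named were the 3 enzymes, every listed pathway gene called in any comparison, the 2 with the largest difference in a list with no call, and the 3 genes most correlated with each enzyme. CDO1 was named as well, since it lay opposite to FMO1 and CTH at 2 days. GADL1, ASPA, PTER and the gene lists were chosen with earlier results of these data known. Arrays give no counts, and their number limits the precision. Signal over background and sequences of the genes were not analysed here.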

Additional observations from a re-analysis of the deposited data

Results flagged for a closer look

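ASPA was flagged because all DMD KO animals lay above WT at 3 months and below it at 2 days. The difference between the genotype differences was 3.48, and it was not tested.

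The genotype difference at 3 months differed from that at 2 days, by limma's interaction term, for FMO1 (-3.14), CTH (-1.82), ALDH6A1 (-1.75), ASNS (1.53) and NAAA (1.17). AMD1 in DMD KO replicate 3 at 2 days, at 9.70, lay far from the other 3 animals of its group, at 8.81 to 8.94. This is by Dixon's gap test at its 95% critical value. Single animals also stood apart in groups of 3. PTER was 8.60 in WT replicate 2 at 2 days, against 7.54 and 7.53, and GADL1 was 7.45 in DMD KO replicate 3 at 3 months, against 8.12 and 8.13.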

How the results depend on the processing

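The limits of these values are the 3 or 4 animals per group, dim probe sets and the unstated normalization. Of the 3 enzymes and the named pathway genes, GADL1, ASPA, ASNS and NAAA were dim in newborn DMD KO muscle. Dim too were ASPA in grown WT muscle, CTH outside newborn DMD KO muscle, and GAD2 throughout. Every difference of GADL1, ASPA and PTER moved by less than 1 SD within groups under the alternatives run: quantile normalization, median centring, eBayes with trend and robust settings, array weights, the replicate block, a filter on probe sets below the 25th percentile of means, the mean over probe sets of a gene, the groups of a comparison alone, and leaving out each of 13 arrays. The eBayes settings, the filter, the mean over probe sets and the groups alone cannot move a difference of these 3 genes. Nor can leaving out an array outside the comparison, so only the other settings could have changed it. The sign changed only for PTER at 2 days, which was -0.10 as reported, 0.14 with array weights and from -0.28 to 0.26 without 1 array. With array weights, whose estimation stopped before its tolerance was reached, 8 pathway genes rose and 2 fell at 2 days, and 1 rose and 3 fell with age in WT. At 3 months 3 fell after quantile normalization and 2 with the groups of the comparison alone. The interaction called 1 gene higher after quantile normalization and 1 after median centring. With the replicate block 1 gene rose at 3 months and the interaction called 0 higher, and 7 of 23 calls on single genes were lost: the interactions of FMO1 (adjusted p = 0.0675), NAAA (0.0732) and ASNS (0.121), ACSS2 at 2 days (0.129) and with age (0.0638), NAAA at 3 months (0.0528) and HIBADH with age (0.0954). Whether same-numbered animals were paired is not known. Their deviations from the group means correlated at -0.35 to 0.31, and 2 of 12 arrays were most like their own number. So few arrays cannot settle it. Without 1 array, 3 to 6 genes rose and 1 to 2 fell at 2 days, 1 to 3 rose and 0 to 2 fell at 3 months, and the interaction called 0 to 2 higher and 3 to 4 lower. In these fits no called pathway gene changed direction. The filter on dim probe sets left CTH out, so its calls were not tried under it.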
